A study of Homo sapiens with 4 samples.

Results

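The immunoglobulin genes encode the heavy chain and the kappa and lambda light chains of antibodies, and they lie in 3 loci: IGH on chromosome 14, IGK on chromosome 2 and IGL on chromosome 22. The members were all genes on these chromosomes that GENCODE release 44 types as immunoglobulin constant (C), variable (V), diversity (D) or joining (J) genes, which gave 191 of 62062 annotated genes on chromosomes 1 to 22 and X. IGH held 91 of them (9 C, 27 D, 6 J and 49 V genes), IGK 52 (1 C, 5 J and 46 V genes) and IGL 48 (4 C, 7 J and 37 V genes). A peak belonged to a locus when its summit lay within 20 kb of a member, and a loop when at least 1 of its anchors, which are bins of 5 kb, did. This gave 98 of 96855 SMC1 peaks, 87 of 62869 CTCF peaks, 83 of 28012 loops in the list labelled SMC1 and 123 of 80487 loops in the list labelled CTCF.

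The samples were labelled HG00731 in their titles, while their growth protocol names HG00721, both human lymphoblastoid cell lines (LCLs), that is B cells kept in culture by transformation with Epstein-Barr virus. HiChIP, a Hi-C experiment with a chromatin immunoprecipitation step, was performed for SMC1, a subunit of cohesin, after fixation with formaldehyde and ethylene glycol bis(succinimidyl succinate) (FA-EGS), and for CTCF after fixation with formaldehyde (FA) alone. Each target had 2 biological replicates, but the deposited lists pool them into 1 peak list and 1 loop list per target. No spread between replicates exists, no test between targets, loci or gene groups was made, and the 95% Wilson intervals given with shares cover counting error only. Both targets came from the same line without further treatment, and target and fixation changed together, so their effects cannot be told apart.

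Antibody genes are assembled during B cell development by V(D)J recombination, in which the RAG enzymes join 1 V gene, in IGH also 1 D gene, and 1 J gene next to the constant genes. CTCF binds between V genes along these loci and cohesin extrudes chromatin loops that stop at CTCF bound to its motif, and both are known to bring distant V genes near the J genes. A mature B cell such as an LCL has finished this assembly for a heavy and a light chain, each on at least 1 chromosome. The DNA between the joined segments can be lost there. All coordinates and distances here are those of the reference genome (hg38), and loss of reads through a rearranged chromosome cannot be told apart from absence of binding.

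The cell type label was checked on marker genes. An SMC1 summit lay within 1 kb of a start of 8 of 8 B cell markers, 3 of 7 T cell markers, 2 of 5 myeloid markers and 1 of 4 erythroid markers, where 31.4% of all annotated genes had one. For CTCF these counts were 5 of 8, 3 of 7, 1 of 5 and 1 of 4, beside 22.8% of all genes. Of the partners of the B cell receptor and enzymes of V(D)J recombination described here, SMC1 summits lay within 1 kb of a start of CD79A and CD79B, the signalling chains of the receptor, and of RAG1, and CTCF summits lay there at CD79B and RAG1. VPREB1, VPREB3, IGLL1 and IGLL5 (surrogate light chain and related genes), JCHAIN (the joining chain of IgM and IgA), RAG2 and DNTT had none of either target within 1 kb.

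The sequences below carry the main pattern at IGL. They are the 10 CTCF peaks within 20 kb of an IGL member that had the strongest CTCF motif. Each scored at least 16 bits by a 19 bp motif learned from CTCF summits on other chromosomes. Capitals mark the motif, 20 bases are shown on either side, and each sequence is read from hg38 on the strand that carries the motif. Each site is named for the nearest member, and the positions are chr22:22195481-22195539, chr22:22201250-22201308, chr22:22207964-22208022, chr22:22692929-22692987, chr22:22710876-22710934, chr22:22720256-22720314, chr22:22753703-22753761, chr22:22788339-22788397, chr22:22855847-22855905 and chr22:22942902-22942960 in the order shown. The motif was on the forward strand in the first 9 and on the reverse strand in the last.
IGLV6-57 site: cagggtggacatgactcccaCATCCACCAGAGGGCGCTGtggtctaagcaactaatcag
IGLV11-55 site a: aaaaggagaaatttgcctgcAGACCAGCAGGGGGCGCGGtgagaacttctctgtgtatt
IGLV11-55 site b: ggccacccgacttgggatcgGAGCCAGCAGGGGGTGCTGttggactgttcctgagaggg
IGLV2-23 site: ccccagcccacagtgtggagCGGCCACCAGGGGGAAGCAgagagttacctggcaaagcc
IGLV3-21 site: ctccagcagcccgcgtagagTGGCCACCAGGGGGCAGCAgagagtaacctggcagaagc
IGLV3-19 site: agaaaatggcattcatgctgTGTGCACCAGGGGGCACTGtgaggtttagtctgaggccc
IGLV2-14 site: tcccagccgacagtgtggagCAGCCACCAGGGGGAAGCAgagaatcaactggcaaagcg
IGLV2-11 site: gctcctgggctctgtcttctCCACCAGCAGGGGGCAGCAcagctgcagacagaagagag
IGLV4-3 site: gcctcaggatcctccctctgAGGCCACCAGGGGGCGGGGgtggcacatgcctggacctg
IGLC7 site: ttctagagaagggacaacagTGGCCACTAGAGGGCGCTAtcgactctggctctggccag

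The V genes share the recombination signal that RAG cuts, and the annotation that gave the members may itself rest on this signal. Its heptamer, searched as CACAGTG on the gene's own strand in the 12 bases after the gene's end, was present at 104 of 132 V genes (38 of 49 in IGH, 41 of 46 in IGK and 25 of 37 in IGL), against 0.0993% of the genes that are neither immunoglobulin nor T cell receptor genes. The 40 bases after 2 V genes with an SMC1 summit inside the gene are shown with the heptamer in capitals, at chr2:88886154-88886193 and chr22:22872036-22872075 of hg38, both on the forward strand.
IGKV4-1 signal: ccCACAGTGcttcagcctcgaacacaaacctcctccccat
IGLV4-3 signal: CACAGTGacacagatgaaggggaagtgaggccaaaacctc

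The 3 loci differed widely in how many peaks they held. IGL held 67 SMC1 and 55 CTCF peaks in 0.661 Mb of window, IGK 27 and 25 in 1.004 Mb, and IGH 4 and 7 in 1.25 Mb. Per Mb these were 101, 26.9 and 3.20 SMC1 peaks, beside 32.0 over all chromosomes, and 83.2, 24.9 and 5.60 CTCF peaks, beside 20.7. The T cell receptor loci, assembled by the same enzymes but in T cells, were spread over a like range: TRA and TRD held 67.4 SMC1 and 82.3 CTCF peaks per Mb, TRG 113 and 119, and TRB 3.68 and 5.52. Per Mb of window IGH and TRB were thus the sparse loci and IGL, TRG, TRA and TRD the dense ones. These densities are not corrected for sequence that is repeated or shared, which is described below. Of the peaks, 62 of 98 SMC1 and 62 of 87 CTCF peaks had a −log10 q-value (the significance MACS3 gives a peak, larger for stronger peaks) of at least 10, beside 59.6% and 65.7% of all peaks. Of the 191 members 78 had an SMC1 and 86 a CTCF summit within 20 kb, beside 63.3% and 57.8% of annotated genes of up to 1000 bp.

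**Figure D1:**
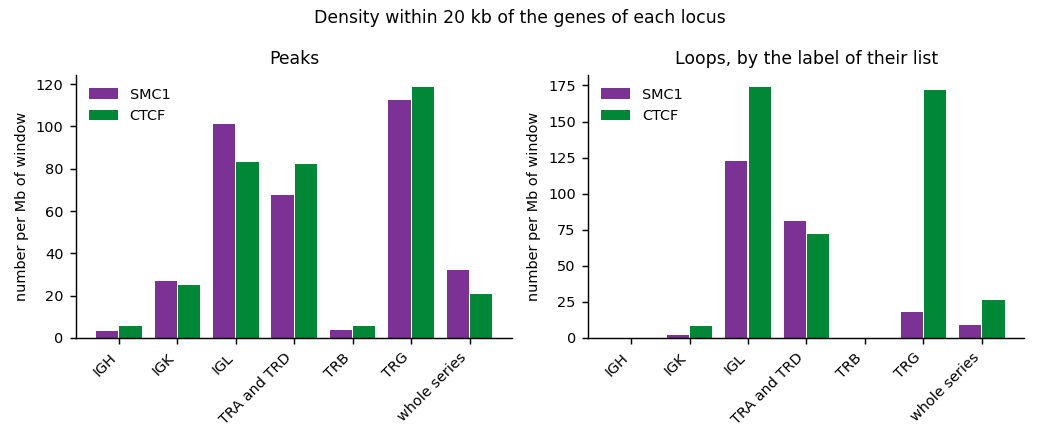
Peaks (left) and loops (right) per Mb of window, that is within 20 kb of the genes of each locus, and over all chromosomes (whole series), with SMC1 in purple and CTCF in green. IGL reached 101 SMC1 peaks per Mb and IGH 3.20, and neither IGH nor TRB had a loop. A loop is counted when either of its anchors lies in the window, so loop densities of windows can run above the whole series for that reason alone.

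IGH was almost empty over its constant genes, and the reference sequence there is not unique. None of its 9 constant genes, 6 J genes or 27 D genes had a summit of either target within 20 kb, and no loop of either list had an anchor there. IGHA2, the constant gene at the 3′ edge that encodes the heavy chain of IgA2, lay 51451 bp from the nearest CTCF summit, and the distances rose through IGHE, IGHG4, IGHG2, IGHA1, IGHG1, IGHG3 and IGHD to IGHM (IgM) at 319425 bp. This follows from their order, because the same last summit before the locus, at 105532280, is nearest to all 9. It lies 731 bp before the first base that the locus shares with an alternate sequence of hg38, a second version of the locus kept beside the chromosome. The last SMC1 summit, at 105532258, lies 753 bp before it.

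That shared stretch ran from 105533011 to 106869591 of chromosome 14 (1.34 Mb) and held 2 SMC1 and 4 CTCF summits. The 200 kb before the first member held 13 and 11. Over the IGH windows only 3.98% of 100-base words occurred once in hg38, and 86.7% also occurred on the alternate sequence. In IGK without 2 stray V genes 63.5% of words occurred once, in IGL 79.8%, in TRB 17.8%, and in TRA and TRD 99.2%. The authors kept alignments with a MapQ over 30, a measure of how sure the aligner is of a position. How their alignment treated alternate sequences is not given in the sources used here, and the part of shared sequence in the empty stretch was not tested. At places spaced 20 kb apart over all chromosomes, those whose word also lay on an alternate had a mean of 0.0324 SMC1 and 0.0271 CTCF summits within 10 kb, beside 0.703 and 0.455 where the word occurred once.

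All 4 SMC1 and 7 CTCF peaks of IGH had a V gene as the nearest member. The CTCF peaks with the highest −log10 q-value were at 106872537, 2046 bp from IGHV7-81, with 201, at 106879209 with 163, and at 106774957, 3937 bp from IGHV2-70, with 114. The first 2 of these lie past the shared stretch, where all words around the summit occurred once. SMC1 peaks lay at these 3 sites with 92.7, 28.6 and 18.1, and another at 106359725, 68 bp from IGHV3-33, had 19.5. Of the SMC1 peaks 4 of 4 overlapped a CTCF peak (100%, 51.0% to 100%), beside 47.1% of all SMC1 peaks. These 4 peaks are too few to read a difference from. At 4 of 4 SMC1 and 5 of 7 CTCF summits at least 50% of the words around the summit occurred once, a setting chosen after the values were seen. Set against the 0.0497 Mb of the IGH windows whose words occurred once, these few peaks made 80.5 and 101 per Mb. In IGL the same densities were 127 and 104, and in IGK without the stray V genes 34.1 and 35.8. The IGH densities rest on 4 and 5 peaks, and what shared sequence contributes to the sparse locus was not tested. The alternate sequence itself held another 3 SMC1 peaks, with −log10 q-values up to 94.6, and 4 CTCF peaks, up to 140, which are not in the counts above.

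**Figure D2:**
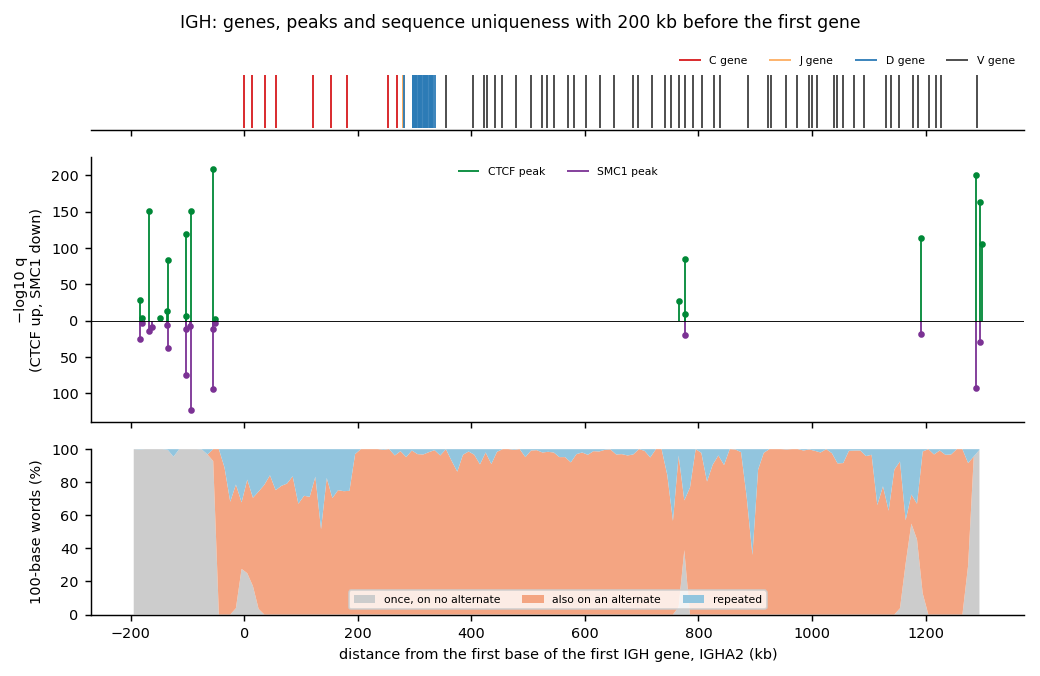
IGH with the 200 kb before its first gene: genes (top, coloured by C, J, D and V), the −log10 q-value of CTCF (up, green) and SMC1 peaks (down, purple), and the percentage of 100-base words in steps of 10 kb that occurred once (grey), also on an alternate sequence (orange) or more than once on the chromosomes (blue), against the distance in kb from the first base of IGHA2. Peaks stop where the orange begins, 731 bp after the last CTCF summit. Within it stand 4 CTCF and 2 SMC1 peaks, and past it 3 and 2 near IGHV7-81.

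IGK split into 3 parts. The proximal part next to IGKC, the kappa constant gene, held 28 members with 20 SMC1 and 14 CTCF peaks. The distal part, an inverted copy that lies further from IGKC, held 22 members with 2 SMC1 and 8 CTCF peaks. The 2 orphon V genes, IGKV3OR2-268 and IGKV1OR2-108, which lie on chromosome 2 outside the locus, held 5 SMC1 and 3 CTCF peaks, and these included the strongest of the IGK set. The CTCF peak at 113390510, 15886 bp from IGKV1OR2-108 in an intron of LINC02966, had a −log10 q-value of 168 and the one at 87341740, 2705 bp from IGKV3OR2-268, had 141, with SMC1 peaks of 146 and 103. Within the locus the highest CTCF values were 84.7 at 89243430, 1351 bp from IGKV2-30, and 83.1 at 88880469, 4928 bp from IGKV4-1.

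Next to IGKC stood an SMC1 peak without CTCF. The SMC1 peak with the highest value within the locus, 82.8 with a fold enrichment of 4.75 over the local background, had its summit at 88855949, 1212 bp from IGKC on its 3′ side, and overlapped no CTCF peak. In all, 6 SMC1 peaks had IGKC or a kappa J gene as the nearest member. Of these, 1 overlapped a CTCF peak and 5 did not, where 47.1% of all SMC1 peaks overlapped one. These 6 peaks are too few to read a difference from. The nearest CTCF summit to IGKC was at 5093 bp, and the 2 CTCF peaks with IGKC as the nearest member had a median fold enrichment of 3.25. A larger CTCF peak, with a −log10 q-value of 256 at 88831749, lay on the same side of IGKC but further than 20 kb from it. An SMC1 peak at 88831723 went with it and, at 158, was also higher than the one next to IGKC. The bin of these 2 summits was an anchor of 5 of the 10 IGK loops of both lists.

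Copies of the same V gene in the proximal and distal parts could be set side by side. Of 16 such pairs of genes, 5 had a CTCF peak nearest to each copy, 1 (IGKV1-12) to the proximal copy alone, none to the distal copy alone and 10 to neither. At IGKV1-17 and IGKV1D-17 the −log10 q-values were 13.2 and 21.5, at IGKV2-28 and IGKV2D-28 18.9 and 43.9, at IGKV6-21 and IGKV6D-21 16.4 and 19.8, at IGKV2-30 and IGKV2D-30 84.7 and 19.8, and at IGKV2-40 and IGKV2D-40 8.86 and 5.17. The last pair did not compare like places. Its summits lay 3480 bp on the 3′ side of IGKV2-40 and 9683 bp on the 5′ side of IGKV2D-40. By nearest gene the distal copy was the higher in 3 pairs and the lower in 2, this pair among the 2. The motif at the summit lay on opposite strands in 4 of the 5 pairs, as an inverted copy would place it. In the pair of IGKV2-40 it lay on the same strand. The sites of IGKV1-17 (chr2:89112603-89112661, reverse strand) and IGKV1D-17 (chr2:90087969-90088027, forward strand) of hg38 differed at 1 of 59 bases and not in the motif, shown in capitals.
IGKV1-17 site: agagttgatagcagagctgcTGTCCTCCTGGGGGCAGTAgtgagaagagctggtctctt
IGKV1D-17 site: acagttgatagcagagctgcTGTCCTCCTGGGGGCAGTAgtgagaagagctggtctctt

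SMC1 went with CTCF at the proximal copies and seldom at the distal ones. Of these 5 pairs, 4 proximal CTCF peaks and 0 distal ones overlapped an SMC1 peak. Over all peaks, 11 of 14 CTCF peaks in the proximal part (78.6%, 52.4% to 92.4%) overlapped an SMC1 peak, and 1 of 8 in the distal part did (12.5%, 2.24% to 47.1%), where 75.9% of all CTCF peaks did. The distal part held 38.1% repeated words and the proximal part 31.1%. The median −log10 q-value was 19.8 for the distal and 17.7 for the proximal CTCF peaks. The part of either in the difference was not tested. IGKV6D-41, in the distal part, was the only one of the 191 members with a CTCF summit inside the gene (summit at 90070023, 9.56), where 1.74% of annotated genes of up to 1000 bp had one.

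IGL fell into 3 blocks of members, split where the gap was over 100 kb. The upstream block from IGLV4-69 to IGLV10-54 held 6 V genes with 23 SMC1 and 18 CTCF peaks. The middle block from IGLV5-52 to IGLV1-36 held 13 V genes with 7 and 6 peaks, and its sequence was unique at one end only. Within 20 kb of its first 6 genes, from IGLV5-52 to IGLV1-47, 88.7% to 99.7% of words occurred once, and from IGLV7-46 on the share fell from 62.6% to 8.71% at IGLV1-36. Of its peaks, 5 SMC1 and 4 CTCF lay before IGLV7-46, and 2 of each target from there on. The downstream block from IGLV2-33 to IGLC7 held 29 members, all J and C genes among them, with 37 and 31 peaks. The highest peak of either target at any immunoglobulin gene stood in the upstream block, 370 bp before the V gene IGLV6-57. CTCF there had a −log10 q-value of 626 and a fold enrichment of 12.7 (summit 22195429), and SMC1 had 468 and 7.65 (summit 22195507). The next CTCF peaks were 355 at 22357569, 170 bp before IGLV1-47, and 328 at 22710953, 736 bp before IGLV3-21. The next SMC1 peaks were 253 at 22157160 (nearest member IGLV4-60) and 192 at 22855855 (nearest member IGLV4-3).

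**Figure D3:**
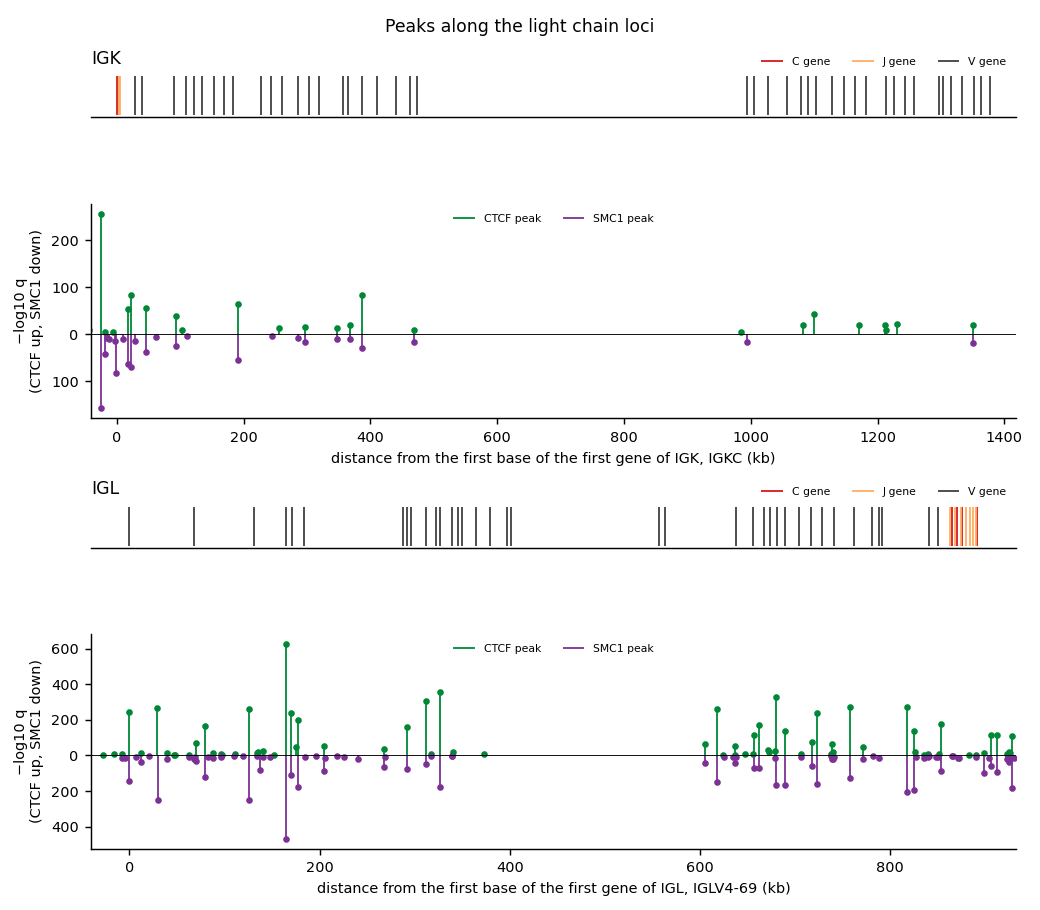
The −log10 q-value of each CTCF peak (up, green) and SMC1 peak (down, purple) along IGK (top) and IGL (bottom), with genes above each coloured by C, J and V, against the distance in kb from the first base of IGKC and of IGLV4-69. In IGL the pair of peaks at IGLV6-57 reached 626 for CTCF and 468 for SMC1, and the distal part of IGK shows 8 CTCF and 2 SMC1 peaks. The orphon genes are not drawn, and peaks between or beside the members further than 20 kb from them are drawn but not counted.

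Peaks lay close to IGL genes. An SMC1 summit was within 1 kb of the start of 20 of 48 IGL genes and a CTCF summit of 15, but of only 5 and 1 of 52 IGK genes and 1 and 2 of 91 IGH genes. Over all 191 members this was 26 and 18, beside 31.4% and 22.8% of annotated genes. CTCF summits lay near many lambda V genes. Of 37 lambda V genes 26 had a CTCF summit within 5 kb, and the nearest was on the 5′ side of 17 and the 3′ side of 9, and none lay inside a gene. Of annotated genes of up to 1000 bp 26.5% had a CTCF summit within 5 kb and 1.74% had one inside, so that 0 of 37 inside is near that share. SMC1 summits lay inside 7 lambda V genes and IGLC1, and inside IGKV4-1 and IGKV2D-40, that is in 10 members, where 2.66% of genes of up to 1000 bp had one inside. These 10 peaks had −log10 q-values between 3.17 and 22.1, beside a median of 13.7 over all SMC1 peaks, and 9 of them overlapped no CTCF peak. Over the whole list 51192 of 96855 SMC1 peaks overlapped none. The median −log10 q-value of those was 7.40, beside 34.1 for the SMC1 peaks that overlapped CTCF. The 10 peaks are too few to read a difference from.

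SMC1 summits lay nearer than CTCF summits to IGLC1, IGLC2 and IGLC3, and IGLC7 had both at a like distance. IGLC1 held an SMC1 summit in its exon, which is also an exon of IGLL5, with a −log10 q-value of 4.07. The nearest SMC1 summit was 475 bp from IGLC2, 3164 bp from IGLC3 and 1816 bp from IGLC7, and the nearest CTCF summit was 11027, 12258, 6892 and 1559 bp from IGLC1, IGLC2, IGLC3 and IGLC7. Past IGLC7, the last gene, both targets were high again. SMC1 reached 98.5 at 22928952 beside a CTCF peak of only 11.6, and at 22942989 SMC1 had 92.1 beside a CTCF value of 116, which is the site with the reverse motif. Around the kappa and lambda constant and J genes together, 10 of 15 SMC1 peaks overlapped no CTCF peak, beside 52.9% of all SMC1 peaks, and 15 peaks are too few to read a difference from.

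Over all members SMC1 and CTCF shared much of their sites. Of 98 SMC1 peaks 59 (60.2%, 50.3% to 69.3%) overlapped a CTCF peak, beside 47.1% of all SMC1 peaks, and of 87 CTCF peaks 62 (71.3%, 61.0% to 79.7%) overlapped an SMC1 peak, beside 75.9%. The SMC1 peaks that overlapped CTCF had a median fold enrichment of 4.57 and those that did not 2.43, beside 4.65 and 2.76 over the whole list. Of the 39 SMC1 peaks without CTCF 15 (38.5%, 24.9% to 54.1%) still held a CTCF motif of at least 10 bits within 100 bp of the summit, beside 25.1% of all such peaks. Of all 87 CTCF peaks 41 (47.1%, 37.0% to 57.5%) held one, beside 47.9%. Where summits of both targets lay within 500 bp, the fold enrichment of CTCF was the higher at 35 of 40 sites in IGL, 13 of 15 in IGK and 4 of 4 in IGH, with median ratios of 1.42, 1.58 and 2.43 beside 1.42 over all such sites.

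The strong CTCF motifs of IGL, but not the weaker ones, lay nearly all on the forward strand. All 37 lambda V genes are transcribed along the forward strand, with the constant genes to their right. Of the CTCF peaks up to the last V gene, 9 of 9 with a motif of at least 16 bits had it on the forward strand, 11 of 12 at 13 bits, 18 of 22 at 10 bits and 29 of 43 at 7 bits. Over all chromosomes the forward share was 50.9%, 50.2%, 50.2% and 49.9%. Past the last V gene the 1 motif of at least 16 bits, at the IGLC7 site, was reverse, opposite to the other 9. It lies 19952 bp past IGLC7. Neighbouring sites share a target sequence and are not independent. The IGLV2-23 and IGLV2-14 sites, 4878 and 4920 bp before these 2 V genes, were identical at 52 of 59 bases, and each of them at 46 and 42 bases with the IGLV3-21 site, while the median over all 45 pairs of sites was 24. In the proximal part of IGK 8 of 11 motifs of at least 7 bits and 6 of 6 of at least 13 bits lay on the strand of the nearest member. In the distal part these were 3 of 8 and 2 of 2, and in IGH 5 of 7 and 2 of 3, so few motifs stand behind each share.

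Before the loops, a limit of the lists has to be named. Each list holds exactly as many loops as the table of the study assigns to the other target, so the labels of the 2 lists are probably exchanged. The lists are called by their labels here, and exchanging them swaps every SMC1 and CTCF value given for loops. MAPS gave for each pair of bins the count of read pairs and the number it expected, and their ratio is called observed over expected.

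Nearly all loops at immunoglobulin genes were at IGL. The list labelled CTCF held 115 there, 8 at IGK and 0 at IGH, and the list labelled SMC1 81, 2 and 0. Per Mb of window IGL held 174 and 122 loops, where all chromosomes had 26.6 and 9.24. TRA and TRD, with a like density of CTCF peaks, held 72.0 and 81.1, TRG 172 and 17.8, and TRB 0. The median count of an IGL loop was 36 read pairs in the list labelled CTCF and 31 in the other, beside 23 and 21 over all loops. Observed over expected went the other way, at 2.91 and 2.90 beside 4.03 and 4.004.

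**Figure D4:**
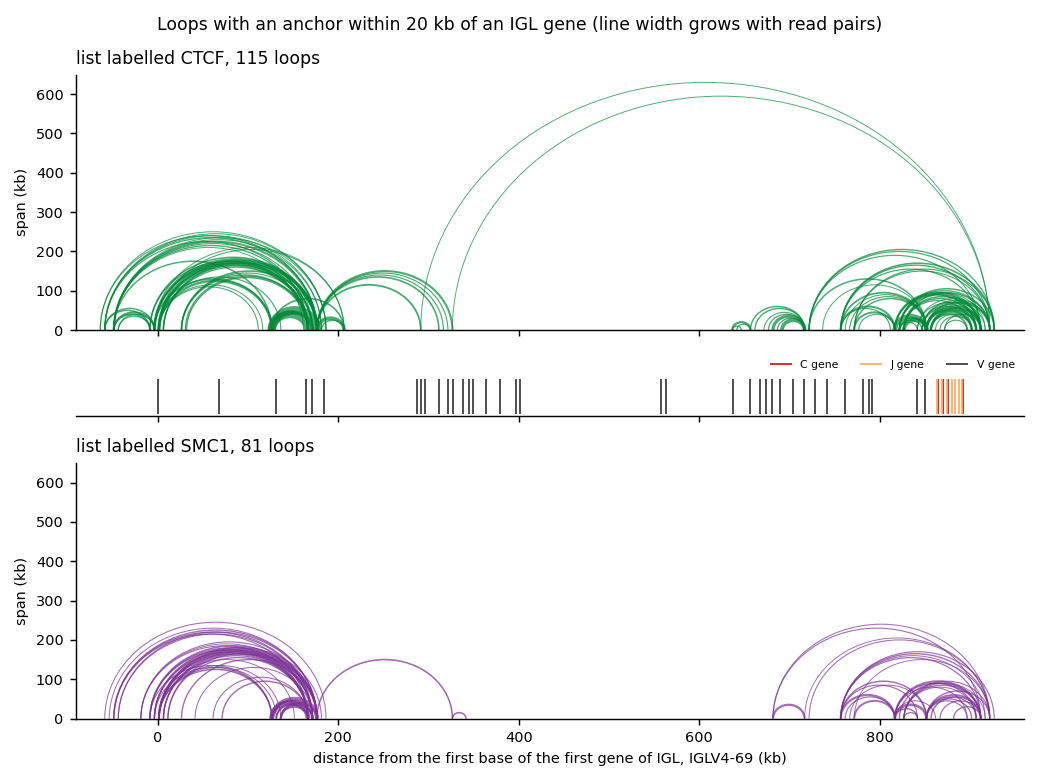
Loops with an anchor within 20 kb of an IGL gene in the list labelled CTCF (top, 115) and SMC1 (bottom, 81), drawn as arcs whose height is the span in kb and whose width grows with the count of read pairs, with genes between them, against the distance in kb from the first base of IGLV4-69. Arcs crowd over the upstream block and over the downstream block with the constant genes, and 2 arcs labelled CTCF, which span 595 and 630 kb, run from the middle block to the end of the locus.

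The 2 strongest loops of IGL in each list joined V genes of the upstream block. The bins at 22155001 (IGLV4-60) and 22205001 (IGLV11-55), 50 kb apart, had 431 read pairs in the list labelled CTCF where 158 were expected, and 191 in the list labelled SMC1 where 58.4 were expected. The bins at 22155001 and 22195001 (IGLV6-57) had 397 and 237. Next came, in the list labelled CTCF, the bins at 22845001 outside the members and 22880001 (IGLV3-1) with 216 read pairs, and in the list labelled SMC1 those at 22155001 and 22200001 (IGLV11-55) with 120. The bin at 22205001 carried 15 loops in the list labelled CTCF and 13 in the other, the most of any bin at an immunoglobulin gene in both. Bins with at least 10 loops were 4 of 72 and 3 of 51, beside 3.75% and 2.67% of all anchors. At the outer end, 17 and 5 loops had an anchor over a start of TOP3B, a topoisomerase gene next to the locus, with 13 to 79 and 16 to 38 read pairs. The longest loop of the list labelled SMC1, 245 kb from 21970001 to 22215001 with 19 read pairs, was 1 of them.

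An anchor counted as V or constant side by its nearest member within 20 kb, so bins further past IGLC7 were left out. Loops between V genes and the constant side were then all in the downstream block. There were 16 in the list labelled CTCF, with 18 to 112 read pairs and 2.18 to 5.97 observed over expected, and 10 in the list labelled SMC1, with 17 to 61 read pairs and 2.07 to 3.16. Every one of these had its constant-side anchor nearest to IGLC7. The V side was IGLV3-1, the V gene closest to the J genes, in 9 and 5 of them, IGLV4-3 in 5 and 3, IGLV2-11 in 1 and 1, and IGLV3-16 or IGLV3-21 in 1 and 1. The strongest joined the bins at 22880001 (IGLV3-1) and 22940001 (the IGLC7 site), 60 kb apart, with 112 and 61 read pairs. Loops within the downstream block numbered 47 and 26 and within the upstream block 28 and 36. From the downstream block 14 and 10 more ran to anchors further than 20 kb past IGLC7. From the upstream to the middle block there were 5 and 1, and none joined the upstream to the downstream block in either list. From the middle block 2 loops of the list labelled CTCF and 0 of the other ran to the far end of the locus, with 12 read pairs each, from IGLV1-51 and IGLV1-47 to the bin at 22950001, and the longer spans 630 kb.

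The direction of the loops at the 10 sites printed above differed between the blocks. The 6 printed forward sites of the downstream block anchored 18 loops in the list labelled CTCF and 16 in the other. Every one ran to the right, towards the constant genes. A forward site of 17.6 bits at 22848569, further than 20 kb from a member and so not printed, had loops both ways. Its bin at 22845001 carried 3 to the right and 3 to the left in the list labelled CTCF, and 6 and 3 in the other. The IGLC7 site with the reverse motif anchored 10 and 9, and every one ran to the left. The 3 forward sites of the upstream block, at IGLV6-57 and IGLV11-55, had 24 of 30 loop ends running to the left in the list labelled CTCF and 35 of 36 in the other. Over all chromosomes 75.2% and 74% of loop ends at anchors with a forward motif of at least 16 bits ran to the right. Loops at neighbouring bins share read pairs of the same contact and are not independent, and no test was made.

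The order of motifs at both anchors showed the same tilt. With the best motif of at least 7 bits in each anchor, which all 206 loops of both lists had, 57 (27.7%, 22.01% to 34.1%) were convergent, that is forward at the left and reverse at the right anchor, beside 41.6% of all loops. In the list labelled SMC1 this was 27 of 83 (32.5%), beside 42.9%, and in the list labelled CTCF 30 of 123 (24.4%), beside 41.2%. Motifs both forward were found at 94 of the 206 loops (45.6%), beside 23.4%. A minimum of 10 bits kept the same 206 loops, so these minimums left none of them out. With motifs taken only within 100 bp of a CTCF summit, 38 of 119 loops were convergent (31.9%, 24.2% to 40.8%), beside 43.9%. Both motifs were forward at 55 of them (46.2%), beside 22.4%. At IGL with at least 13 bits, 50 of 156 loops were convergent (32.1%, 25.2% to 39.7%) beside 44.7%, and 73 were both forward (46.8%) beside 22.5%. A loop that is in both lists counts in each, and loops at neighbouring bins are not independent. The intervals treat each loop as independent and are too narrow for that reason.

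**Figure D5:**
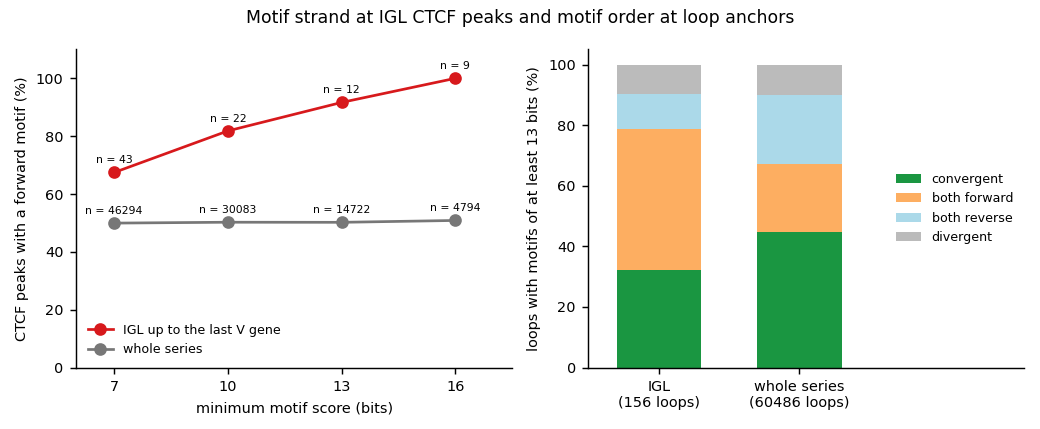
Left, the percentage of CTCF peaks with a forward motif against the minimum motif score in bits. Red marks IGL peaks within 20 kb of a member up to the last V gene, and grey all chromosomes. The number of peaks stands at each point. Right, the percentage of loops of both lists by the order of their motifs (at least 13 bits at both anchors) for IGL and all chromosomes. The forward share in IGL rose from 67.4% at 7 bits to 100% at 16 bits and stayed near 50% over all chromosomes, and loops with both motifs forward made up 46.8% at IGL and 22.5% over all chromosomes.

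At IGK the loops were few, and 5 of 10 shared the anchor at 88830001 outside the members. In the list labelled CTCF this bin was joined with the bins at 88855001 near IGKC (96 read pairs, 44.8 expected), at 88880001 near IGKV4-1 (40 read pairs) and at 89140001 near IGKV3-20. The last was the longest at 310 kb and had the highest observed over expected of the IGK loops, 10.3, on only 14 read pairs. The bins at 88835001 and 88850001, both nearest to IGKC, had 89 read pairs, and those at 88835001 and 88855001 had 66. The list labelled SMC1 held 2 IGK loops, from the bin at 88830001 to those at 88845001 and 88850001, with 26 and 31 read pairs. No loop reached the distal part of IGK in either list, and 1 loop of 15 kb lay at the orphon IGKV1OR2-108.

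Most of these loops had a counterpart in the other list. Of the 83 loops in the list labelled SMC1 78 (94.0%, 86.7% to 97.4%) had a match within 15 kb at each anchor in the other list, beside 91.7%, and of the 123 in the list labelled CTCF 96 (78.0%, 69.9% to 84.5%), beside 53.4%. At IGK 3 of 8 loops labelled CTCF matched. Exactly the same pair of bins was called for 45 of 81 IGL loops labelled SMC1 (55.6%), beside 69%, and the list labelled CTCF had a median of 1.45 times as many read pairs there, beside 1.64 times over all such loops.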

How the data were processed

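SMC1 FA-EGS HiChIP and CTCF FA HiChIP of HG00731 were deposited as 1 peak list and 1 loop list per target, each pooling 2 replicates. Alignment by the authors was to hg38 (BWA-MEM), with MapQ over 30 required and duplicates dropped, and MACS3 3.0.1 gave the peaks (q-value 0.01, no model, extension of 200 bp, no input). The submitters' processing notes also name bcl2fastq 2.17 and deepTools. For each peak the authors deposited the fold enrichment over local background (a ratio), the −log10 of the p-value and of the q-value, and a score. MAPS loops in 5 kb bins were deposited with a raw read pair count, the number expected, a false discovery rate as q-value, the −log10 P of its cluster and cluster scores. The scores, −log10 P values and false discovery rates were not used. Depth per replicate is not given in the sources used here. The study counts more reads for the pooled SMC1 set than for CTCF. Loops labelled SMC1 hold 788356 read pairs and those labelled CTCF 2666327.

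Members and gene lists were chosen with earlier results of these data known. Some items of the gene lists are not reported here. Genes came from GENCODE 44. Overlaps needed 1 bp and loop matches 15 kb tolerance per anchor. Uniqueness was the share of exact 100-base words, every 20 bases in the loci and every 20 kb elsewhere, that occur once in hg38 with its alternates. The 19 bp motif was learned by expectation maximization from the 3000 CTCF peaks with the highest −log10 q-value on chromosomes other than 2, 14 and 22, 50 bases each side of the summit. In a simulation, words from a random 19 bp matrix that strongly favoured 1 base at each position were planted in random sequence. There 19 of 19 positions and 799 of 800 sites were recovered. The learned motif carried 9.49 bits, and anchors were scanned over 5 kb of hg38. The simulation does not measure how well weaker motifs were placed in such anchors. Named are all constant genes, the 3 peaks per locus and target of highest significance, per locus and loop list the 3 loops with most read pairs, the longest and the busiest anchor, and members that hold a CTCF summit. Other genes, such as the motif sites, the copies in IGK, members that hold an SMC1 summit and the blocks of IGL, were chosen after their values were seen. Alternatives were other −log10 q-value thresholds, distances, overlap rules, tolerances and motif minimums, members with pseudogenes, and exchanged loop lists. Sequences were read from hg38. Software was pysam 0.24.0, Matplotlib 3.10.9, pandas 2.3.3, SciPy 1.17.1 and NumPy 2.4.6 under Python 3.11.15.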

Additional observations from a re-analysis of the deposited data

Results flagged for a closer look

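The CTCF list holds 4 peaks on the alternate sequence of IGH, outside the chromosomes that the comparisons used, with −log10 q-values from 6.23 to 140, and a count of 0 allows up to 3. The SMC1 list holds 3 there, from 21.0 to 94.6. No control sample exists for these counts.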

How the results depend on the processing

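Counts over all members moved by over 1.5 times where the rule kept fewer peaks or loops by construction. SMC1 peaks fell to 62 with the −log10 q-value at or above 10 and to 65 within 5 kb. CTCF peaks fell to 57 within 5 kb. Loops with both anchors near a member of the same locus fell to 53 (labelled SMC1) and 73 (labelled CTCF). The share of SMC1 peaks overlapping CTCF was 71.0% where both lists kept peaks at or above 10. Without tolerance, matched loops were 54.2% (labelled SMC1) and 36.6% (labelled CTCF). Another 29 values over all members under the other listed alternatives stayed within 1.5 times or within the interval, among them the exchanged loop lists (123 and 83 loops). So did all 4 from alternatives chosen after seeing the data: 93 SMC1 and 84 CTCF peaks without the orphon genes, and 91 and 81 where at least 50% of words around the summit occur once, with the orphon windows not searched for words. Counts per locus were less stable: 15 moved and 45 did not under the listed alternatives. IGK loops went from 2 to 8 (labelled SMC1) and 8 to 2 (labelled CTCF) with the lists exchanged. Within 50 kb they were 4 and 18, and IGH had 1 loop labelled CTCF. No paired analysis was possible because both replicates of each target are pooled in the lists. For the same reason no replicate could be left out. Depth per replicate is unknown, and the study counts more reads for SMC1 than for CTCF. In most of IGH and TRB, and in IGL from IGLV7-46 to IGLV3-32, sequence is shared with alternates, so few or no peaks there do not show absence of binding.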
